A study of Arabidopsis thaliana with 4 samples.

Results

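Of the 3125 LEC1-FLAG peaks that both replicates called on the 5 nuclear chromosomes of Arabidopsis thaliana, 533 (17.1%, 95% Wilson interval 15.8 to 18.4) lay in a short stretch between neighbouring genes, close to the end of a gene on each side. They were replicate 1 peaks matched to a replicate 2 peak, with 50% or more of the shorter of the matched peaks covered. The summit, taken as the position of highest pileup, had to be outside every protein-coding gene and within 1000 bp of such a gene to the left and to the right. The other shared peaks had the summit inside a gene (1172), within 1000 bp of 1 gene end only (886) or farther from genes (534). In the full lists, 1956 of the 13894 replicate 1 peaks and 590 of the 3361 replicate 2 peaks were placed in the same way.

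The study mapped LEC1 by chromatin immunoprecipitation and sequencing in developing seeds, placed at the mature stage by the sample labels and at embryo expansion by the series title. All samples came from lec1-4 mutants that carried the transgene pLEC1:LEC1-FLAG, in which the tagged LEC1 is made under the promoter of LEC1 itself. Growth conditions did not differ between samples: the temperature was 22 °C, the day lasted 16 h and the night 8 h. An antibody against FLAG was used for 2 ChIP samples, and 2 input samples of the same genotype gave the background. A FLAG precipitation of untagged plants was not analysed here, so LEC1-FLAG binding was not separated from background of the antibody. ChIP depth was 4454133 tags in replicate 1 and 4493099 in replicate 2, and input depth was 7578894 and 9646586.

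LEC1 is a seed form of the NF-YB subunit of NF-Y, a complex of 3 kinds of subunits that recognises CCAAT elements, and it is needed for embryo identity and for the filling of the seed with protein and oil. Arabidopsis genes are packed closely, and a short stretch between neighbouring genes can hold the start regions of both, the start of one and the end of the other, or the ends of both. A peak there can therefore be assigned to either neighbour by distance. The gene table used here gives no strand, so starts and ends were not told apart. Peaks of 1 library are not replicates of a condition, and differences between groups of peaks are given here with intervals for counting error only and without a test.

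The gap, the stretch between the neighbouring genes, had a median length of 649 bp around these peaks (middle 50%, 316 to 974; range 19 to 1924). The genome has 17270 gaps in which some position meets the rule, and 531 of them held at least 1 of the peaks. This was 3.07% of the gaps. Without the requirement of a replicate 2 partner, replicate 1 alone gave 11.1%. The 17270 gaps had a median length of 497 bp, but longer gaps offer more positions. Over all positions that meet the rule the median gap was 831 bp, longer than the median around the peaks.

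Shared summits were densest in the shortest gaps. Gaps of 1 to 500 bp held 216 peaks, or 12.5 per 100 kb of sequence that meets the rule (95% Poisson interval 10.9 to 14.3). The density was 6.76 (5.86 to 7.76) in gaps of 501 to 1000 bp, 4.62 (3.74 to 5.64) above that up to 1500 bp and 4.28 (2.62 to 6.61) in the longest group, up to 2000 bp. The same order was seen in each full list: 43.8, 24.8, 19.2 and 14.3 per 100 kb in replicate 1, and 14.0, 7.53, 4.95 and 4.71 in replicate 2. By number of gaps the order was another one, since a gap of a few bases offers few positions. A peak was found in 2.49% of gaps of 1 to 500 bp (216 of 8670), in 4.94% of those of 501 to 1000 bp (201 of 4066), in 3.48% of those up to 1500 bp (94 of 2698) and in 1.09% of those up to 2000 bp (20 of 1836). Above 1000 bp, only the central part of a gap is within reach of both genes, so these shares cover less and less of each gap.

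**Figure D1:**
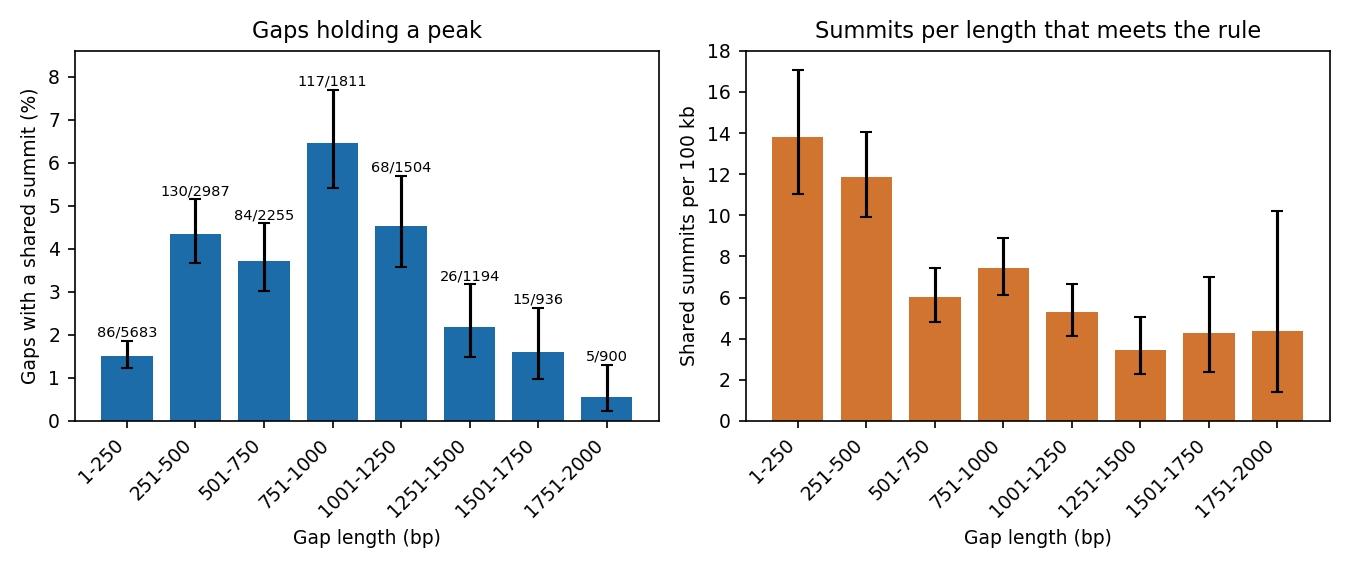
Gaps between neighbouring protein-coding genes in groups of 250 bp of length (x axis). The left panel gives the percent of gaps with a shared summit (bars, with 95% Wilson intervals and counts), which was highest at 6.46% in gaps of 751 to 1000 bp, and the right panel the shared summits per 100 kb that meets the rule (bars, with 95% Poisson intervals), which was highest at 13.8 in gaps of 1 to 250 bp.

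The shortest of these gaps, of 19 bp, lay between AT3G51000 and AT3G51010 on chromosome 3. Its peak had a fold enrichment over input of 5.21 in replicate 1 and 3.89 in replicate 2, and the summits of both replicates were at the same base, 18946629. A gap of 29 bp between AT4G01023 and PYL7, an abscisic acid receptor gene, had 7.84 and 3.15, and a gap of 50 bp between AT5G19930 and AT5G19940 had 12.3 and 3.74. Gaps of this size are shorter than the 187 and 149 bp to which the authors extended the fragments. At the other extreme, the summit between AT5G41390 and AT5G41400, in a gap of 1891 bp, was 906 bp from the nearer gene and had 19.6 and 7.18. The gaps between P1R1 and AT5G57785 (1924 bp, folds 6.24 and 2.92) and between GEK1 and AT2G03810 (1808 bp, 6.18 and 2.53) had weaker peaks.

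Taken over all gaps together, summits were nearer to a gene than the available positions were. This comparison mixes position with gap length. In gaps of 1 to 500 bp, 212 of the 216 summits were within 200 bp of a gene, but few positions there are farther away. The median distance to the nearer gene was 116 bp (middle 50%, 54 to 234), against 206 bp over all positions that meet the rule. Of the 533 summits, 378 (70.9%, 66.9 to 74.6) were within 200 bp of the nearer gene, where 49.1% of these positions are. Within 50 bp there were 121 summits (22.7%) and 15.7% of the positions. The gene on the other side was a median of 506 bp away, and 100 summits (18.8%, 15.7 to 22.3) were within 200 bp of both genes. The nearer gene was to the left of the summit for 282 peaks and to the right for 251.

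Distance relative to gap length was taken as 0 at a gene and 0.5 in the middle, and its median was 0.249 (middle 50%, 0.129 to 0.370). Summits in the fifth of this scale nearest a gene were 18.9% of all, against 13.8% of the positions that meet the rule, and those in the fifth nearest the middle were 17.6%, against 27.7% of the positions. In gaps of 501 to 1000 bp, where every position meets the rule, the median relative position was 0.184 (middle 50%, 0.0971 to 0.298), on the gene side of the midpoint of the scale. In gaps of 1 to 500 bp it was 0.284, on the side of the middle of the gap.

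**Figure D2:**
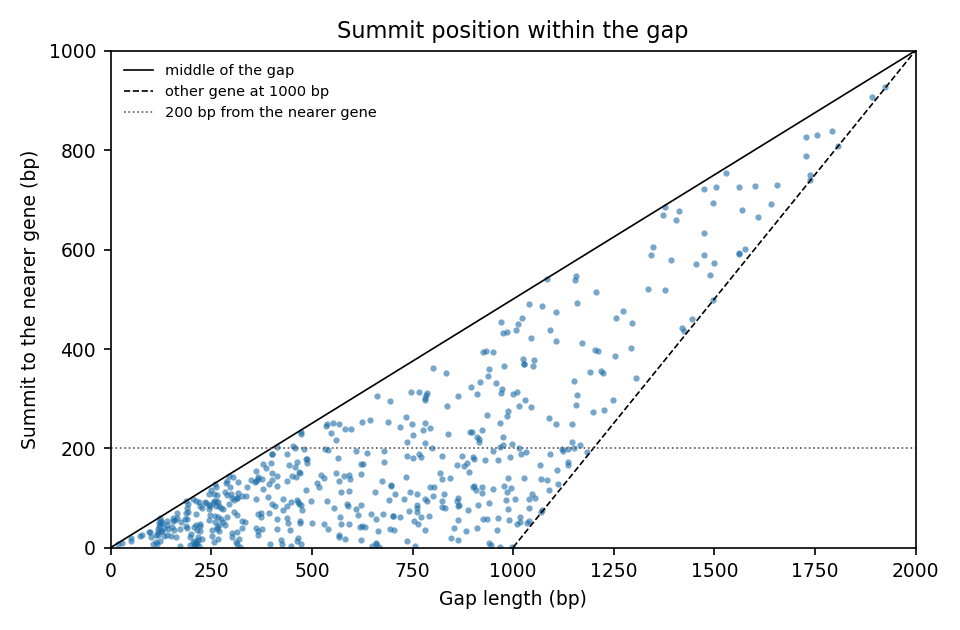
Distance of the replicate 1 summit to the nearer gene (y axis, bp) against the length of the gap (x axis, bp) for the 533 peaks, 1 point each. The solid line is the middle of the gap, the dashed line the limit set by the 1000 bp rule, and 378 points are at or below the dotted line at 200 bp.

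A few peaks show the range. In a gap of 1084 bp the summit between MSL6, a gene of the mechanosensitive channel family, and AT1G78620 was 540 bp from the nearer gene, almost in the middle, with folds of 12.3 and 4.49. The summit between RD26, a NAC factor gene of drought and abscisic acid responses, and AT4G27415 was 685 bp from the nearer gene of a 1377 bp gap, with 9.19 and 4.74. The third of this kind was between the sugar transporter gene STP11 and AT5G23280 (755 bp of 1529 bp, 5.98 and 3.66). By contrast, a summit 47 bp from SAR1B, which encodes a GTPase of vesicle transport, was 964 bp from the calreticulin gene CRT1a, and it had 19.4 and 5.38. The summit 51 bp from AT2G45100 and 966 bp from the expansin gene EXPB4 had 13.3 and 4.40.

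Density was then compared with sequence that has a gene within 1000 bp on 1 side only. The stretches between close genes had 7.36 shared summits per 100 kb (6.75 to 8.01) over 7.24 Mb, and the 1-sided stretches had 5.20 (4.86 to 5.55) over 17.1 Mb, a ratio of 1.42 (exact binomial interval 1.27 to 1.58). Gene interiors had 1.82 and sequence farther from genes 1.76. The ratio was 1.52 for all replicate 1 peaks and 1.38 for all replicate 2 peaks. With 50% overlap required of both peaks it was 1.098 (0.944 to 1.27), an interval that holds 1. Differences between these stretches in the sequence to which reads can be mapped were not taken into account.

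Positions in short gaps are all near a gene, so the densities were also compared at equal distance. At 1 to 50 bp from the nearer gene there were 10.6 shared summits per 100 kb (8.81 to 12.7) between close genes and 7.15 (5.65 to 8.92) at 1 gene end, and the intervals met. At 51 to 100 bp the values were 12.99 and 11.1, at 101 to 200 bp 9.14 and 7.53, and at 501 to 1000 bp 3.68 and 4.11, all with overlapping intervals. Among all replicate 1 peaks the intervals were apart at 1 to 50 bp (43.9, 40.2 to 48.0, against 33.1, 29.8 to 36.7), at 51 to 100 bp (43.5 against 32.1) and at 201 to 300 bp (20.6 against 14.7). In replicate 2 the values at 1 to 50 bp were 11.6 (9.69 to 13.7) and 8.43 (6.8 to 10.3).

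**Figure D3:**
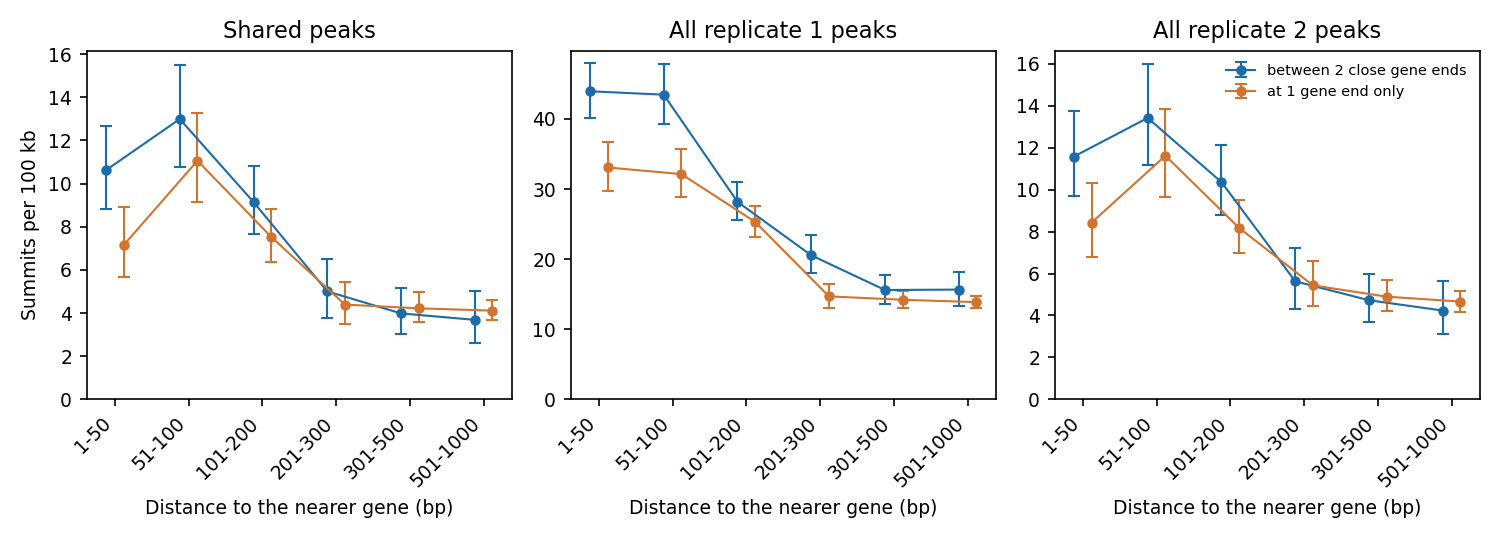
Summits per 100 kb (y axis) by distance to the nearer gene (x axis, bp) in stretches with a gene within 1000 bp on both sides (blue) and on 1 side (orange), for shared peaks, all replicate 1 peaks and all replicate 2 peaks. Points are densities and bars 95% Poisson intervals; at 1 to 50 bp the blue points stood at 10.6, 43.9 and 11.6 and the orange ones at 7.15, 33.1 and 8.43.

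A minority of the peaks reached the edges of both neighbours. In replicate 1, 154 of those that did were in gaps of 1 to 500 bp. In replicate 1, 167 of the 533 peaks (31.3%, 27.5 to 35.4) reached from the gene on the left to the gene on the right, 264 reached 1 gene and 102 neither. In replicate 2, whose peaks were shorter (median 301 bp, against 605 bp), 75 reached both genes, 238 reached 1 and 220 neither. The replicate 2 summit was in the same gap for 491 peaks (92.1%, 89.5 to 94.1) and inside a protein-coding gene for the other 42. Replicate 1 called several summits in 102 of the peaks. In 29 of these the remaining summits were all in the same gap, in 5 some of them were, and in 68 none was.

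Signal was similar in strength to that of the other shared peaks. The median fold was 8.68 in replicate 1 (middle 50%, 6.61 to 11.6; range 2.09 to 30.4) and 3.55 in replicate 2 (2.90 to 4.40; 2.13 to 8.89). Peaks at 1 gene end had medians of 8.10 and 3.35, peaks inside genes 8.59 and 3.35 and peaks far from genes 8.21 and 3.45. The median pileup, which counts the extended fragments that cover the summit, was 82 and 27. Without the requirement of a partner, the replicate 1 peaks between close genes had a median fold of 4.33. Across the 533 peaks fold had little relation to gap length (Spearman's rho -0.03 in replicate 1 and -0.06 in replicate 2, as a description, since the peaks of a replicate share 1 library and its depth).

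The median ratio of the replicate 2 fold to the replicate 1 fold was 0.407 (middle 50%, 0.333 to 0.521), and 7 of the 533 peaks (1.31%) had the higher fold in replicate 2. The highest ratio, 1.49, was between AT2G17530 and AT2G17540, with folds of 2.79 and 4.14. It was followed by the peak between AT1G27870 and AT1G27880 (4.22 and 5.61) and the one between BCAT-1 and BCAT-2, neighbouring genes for aminotransferases of branched-chain amino acids (2.09 and 2.56). The lowest ratio, 0.176, was between AT5G45630 and AT5G45640, with 22.7 and 4.00. HY5, a bZIP factor gene of light signalling, and OCP3, a homeodomain gene, shared a gap of 200 bp with folds of 17.6 and 3.5. The remaining peak of the lowest 3 was between DJ1B and AT1G53282 (12.35 and 2.299). At these 3 peaks with the lowest ratios the local background of replicate 2 with 1 added, computed back as (pileup + 1) / fold, was 11.2 to 12.2, against a median of 7.52, and its part in the low ratios was not tested. Spearman's rho of the folds of both replicates was 0.60 over the 533 peaks, and paired summits lay a median of 34 bp apart.

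**Figure D4:**
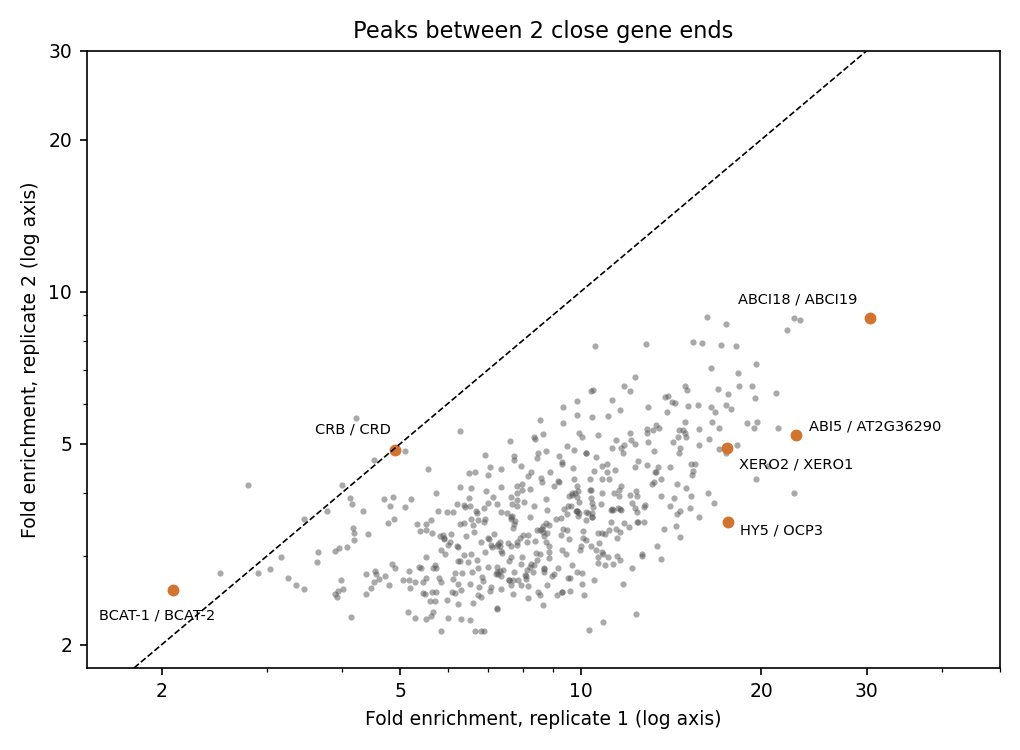
Fold enrichment in replicate 2 (y axis, log) against replicate 1 (x axis, log) for the 533 peaks, 1 point each, with 6 gene pairs marked. The dashed line marks equal folds, and 7 points are above it.

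Replicate 1 peaks in these stretches were found again in replicate 2 in 27.2% of cases (25.3 to 29.3), against 22.5% of all nuclear replicate 1 peaks. The share was 29.3% at 1 gene end, 29.7% far from genes and 16.5% inside genes. Since sharing is part of the rule, these shares are a description. In the tenth of replicate 1 peaks with the highest fold, 96.8% (93.8 to 98.4) of those between close genes had a partner, 96.3% at 1 gene end and 91.0% inside genes.

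The strongest peak by the replicate 1 fold lay between ABCI18 and ABCI19, both named after the ABC transporter family. It was in a gap of 273 bp on chromosome 1 (992922 to 993965). Its pileup was 256 fragments in replicate 1 and 78 in replicate 2, with folds of 30.4 (95% Poisson interval of the pileup, 26.8 to 34.4) and 8.86 (7.03 to 11.03). By the smaller fold of both replicates, which ranks sites by their weaker measurement, the first was the gap of 771 bp between AT4G11560 and AT4G11570 (chromosome 4, 7003842 to 7004577), with pileups of 197 and 69 and folds of 16.3 and 8.89. It was in 14th place among all shared peaks, so the 13 peaks above it were in other positions. Of the 50 shared peaks with the highest smaller fold, 12 (24.0%) were between close genes, and of the first 100, 16 (16.0%), close to their share of 17.1% among all shared peaks.

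Others among the 10 strongest were at genes of many kinds. The gap of 361 bp between AT3G53640 and HTB6 (AT3G53650), a histone H2B gene, had pileups of 198 and 70 and folds of 22.7 and 8.89, and the summits of the replicates were 3 bp apart (chromosome 3, 19888747 to 19889767). GRH1 (AT4G03190), an F-box gene of the auxin receptor family, and AT4G03200 had 216 and 61 fragments and folds of 23.2 and 8.79, with the summit 3 bp from AT4G03200 and 754 bp from GRH1 (chromosome 4, 1407697 to 1408612). INVH, an invertase gene, and AT3G05830 had 189 and 64 fragments and folds of 17.4 and 8.64. In each of these 3 the replicate 2 fold was far above the 3.55 that was the median of the 533 peaks. That follows from the choice of sites by the smaller fold.

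TBL2, of a family linked to acetylation of cell wall polymers, and the receptor-like kinase gene NIK3 had 208 and 61 fragments and folds of 22.1 and 8.40. The gap between ABCF5 and AT5G64850 had 150 and 55 fragments and folds of 15.4 and 7.94, and that between AT3G05700 and SYP43, a syntaxin gene of the trans-Golgi network, had 165 and 58 fragments and folds of 16.0 and 7.92. A gene for a B-type cyclin, CYC1BAT, and ATO, a splicing factor gene, flanked a peak of 140 and 56 fragments with folds of 12.8 and 7.87. TOZ, a gene needed for cell division in the embryo, and the inositol phosphate kinase gene ITPK1 flanked one of 147 and 52 fragments with folds of 17.1 and 7.86. The replicate 2 fold was the smaller one at all 10 and therefore chose them, so its narrow range, 7.86 to 8.89, is set by the choice. The replicate 1 folds were 12.8 to 30.4.

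Seed genes were among the neighbours. The counts that follow are over 9 lists of chosen genes, 158 in all, which do not hold every member of each family. Genes named as outside a list were chosen after their values were seen, and their relatives without a peak were not counted. Of the 158 genes, 137 border a gap that can hold such a peak, and 30 of them (21.9%) had one beside them, against 4.52% of the 23150 protein-coding genes that border such a gap (1046 genes). The lists were drawn up with earlier results of these data known, so their counts are not independent evidence. With replicate 1 alone 60 listed genes had a peak beside them, with −log10 q of at least 10 in both lists 14, and with a 500 bp window 15. The 29 peaks concerned had replicate 1 folds of 4.90 to 22.9 and replicate 2 folds of 2.13 to 8.89.

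Storage protein genes had 5 of the 10 listed beside a peak. SESA5, for a 2S albumin, shared a gap of 1068 bp with the protease gene DEG16, and the summit, 138 bp from the nearer gene, had folds of 14.6 and 4.90. CRB and CRD, neighbouring genes for cruciferins, the 12S globulins of the seed, had a peak of 38 and 33 fragments in the 1051 bp between them, with folds of 4.90 and 4.86. This is one of the few sites where the replicates gave nearly the same fold. SESA1 and AT4G27130 had 7.12 and 3.12, and the cruciferin gene CRC and PHB1 had 9.66 and 2.87.

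Oil body genes had 4 of the 8 listed beside a peak, all in gaps under 500 bp. CLO1, for the oil body protein caleosin, shared 245 bp with a gene named EXT-like, with folds of 14.3 and 6.03. OLEO3, an oleosin gene, shared 438 bp with EMB3142 (12.97 and 5.03), and OLEO1 shared 339 bp with PMSR4 (7.73 and 4.74). CLO2 and MAP65-1, a gene for a microtubule bundling protein, had 327 bp between them and folds of 8.65 and 3.34. In replicate 2 the peaks at CLO1, OLEO3 and OLEO1 were above 4.40, the upper quartile of the 533 peaks, and that at CLO2 was below their median of 3.55.

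Late embryogenesis abundant and desiccation genes, whose products protect drying cells, had 6 of the 17 listed beside a peak. XERO2 and XERO1, adjacent dehydrin genes, shared 1 peak in a gap of 313 bp, with 158 and 35 fragments and folds of 17.5 and 4.91. RAB28 and TRM82, a gene of tRNA methylation, had 164 and 49 fragments and folds of 18.4 and 6.52 in a gap of 214 bp. LEA4-5 and AT5G06770 had 154 and 47 fragments and folds of 14.9 and 6.50 in a gap of 261 bp. ERD10 (11.1 and 4.26) and LEA7 (8.10 and 2.69) followed with weaker peaks. Outside the list, AtLEA4-1 (9.86 and 3.69) and the gene named LEA, AT2G21490 (4.60 and 2.70), were also beside a peak.

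Of the 28 listed photosynthesis genes, 23 border such a gap, and 5 of these had a peak beside them. LHCB1.5 and LHCB1.4, adjacent genes of the main light-harvesting antenna, held 2 separate peaks in the 1038 bp between them. The first summit was 80 bp from LHCB1.5, with folds of 6.83 and 2.48, and the second was 53 bp from LHCB1.4, with 7.26 and 2.35, so each gene had a peak of like strength at its own end. Only 1 other gap held 2 of the peaks, that between AVA-P4, a gene of the vacuolar proton pump, and AT1G75640, with 3.63 and 2.92 at the first and 10.9 and 3.03 at the second. LHCB4.1 and AIRP2, a ubiquitin ligase gene of abscisic acid responses, had 10.4 and 4.05. LHCB4.2 (6.92 and 3.54) and LHCB2.3 (7.08 and 2.61) were the other antenna genes, and no Rubisco gene of the list bordered a peak.

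**Figure D5:**
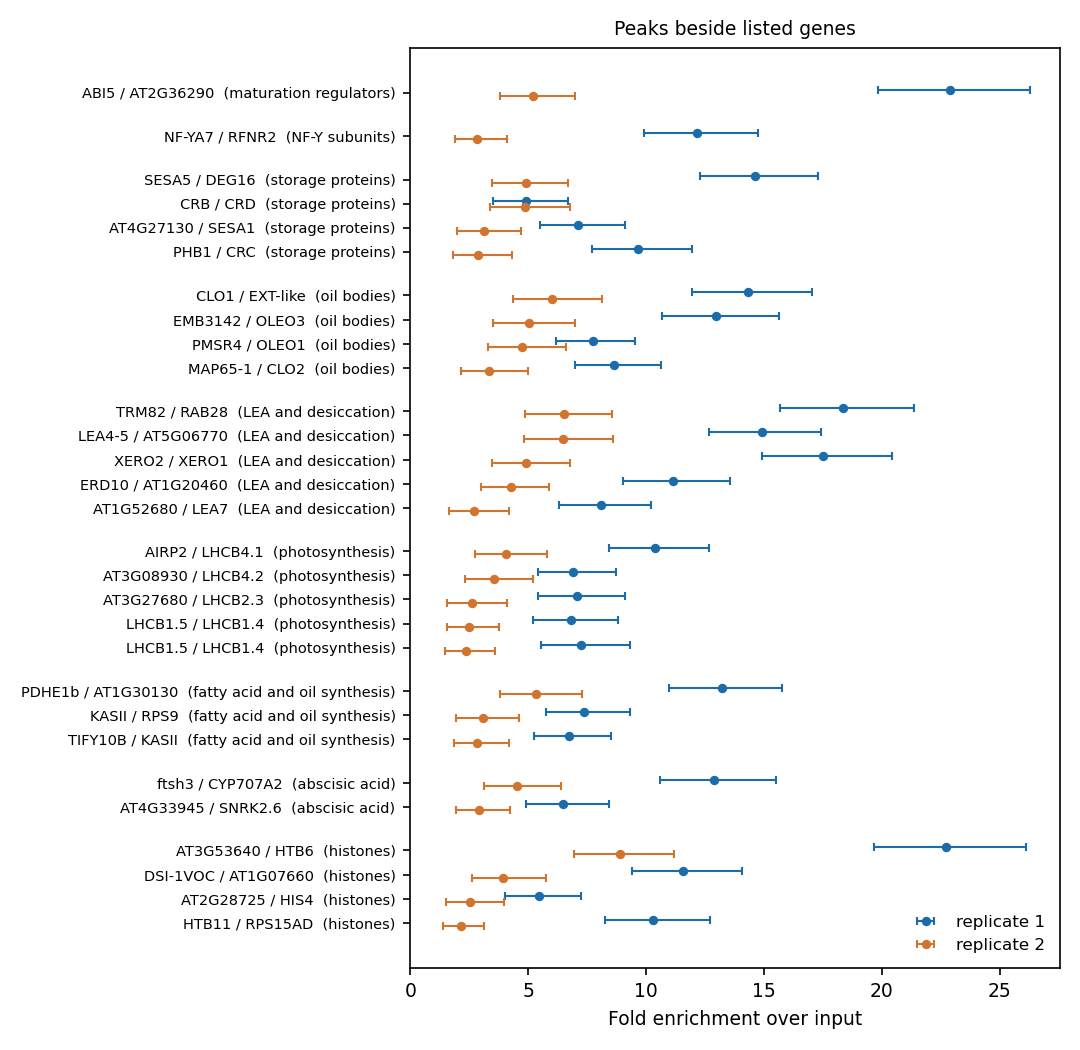
Fold enrichment (x axis) in replicate 1 (blue) and replicate 2 (orange) at the 29 peaks beside a listed gene (y axis, left and right neighbour, list in brackets), with bars for the 95% Poisson interval of the pileup. The replicate 1 fold was the higher at every peak shown, and at CRB / CRD the points nearly coincide, at 4.90 and 4.86.

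The remaining lists had from 1 to 4 genes beside such a peak. Of their genes that border such a gap, this was 7.14% of maturation regulators and 5.26% of NF-Y genes, against 4.52% of all such genes. The share was 12.5% for fatty acid and oil genes, 22.2% for abscisic acid genes and 19.05% for histone genes. Of 14 listed maturation regulator genes that border such a gap, 1 had a peak beside it: ABI5, a bZIP factor of abscisic acid signalling, with 198 and 43 fragments and folds of 22.9 and 5.21, its summit 95 bp from the nearer gene of an 861 bp gap with AT2G36290. Of 19 listed NF-Y genes that border such a gap, 1 had a peak beside it. This was NF-YA7, in a gap shared with the reductase gene RFNR2 (12.2 and 2.84). NF-YB11 (14.5 and 5.17) and NF-YC11 (7.07 and 4.50) were not on the list and also had one, but they were chosen after their values were seen. Fatty acid and oil genes had 2 of the 16 listed that border such a gap. These were PDHE1b, for a subunit of the plastid pyruvate dehydrogenase (13.2 and 5.32), and KASII, for an enzyme that elongates fatty acids. KASII had a peak on each side, but neither summit had KASII as its nearer gene. Towards TIFY10B (6.74 and 2.84) the summit was 753 bp from KASII and 721 bp from TIFY10B. Towards RPS9 (7.38 and 3.07) it was 987 bp from KASII and 49 bp from RPS9.

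Abscisic acid genes had 2 of the 9 listed that border such a gap, the catabolic gene CYP707A2 (12.9 and 4.54) and the kinase gene SNRK2.6 (6.49 and 2.92). The first summit was 498 bp from CYP707A2, its nearer gene. The second was 669 bp from SNRK2.6 and only 151 bp from the neighbour AT4G33945. Outside the list, a peak was also beside the receptor genes PYL7 above and PYL3 (5.50 and 2.53) and the phosphatase gene HAB2 (8.26 and 4.40). Histone genes had 4 of the 21 listed that border such a gap. These included HTB6 above and the H4 gene AT1G07660, with its summit 7 bp from the neighbour DSI-1VOC (11.6 and 3.94). The others were the H4 gene HIS4 (5.46 and 2.53) and the H2B gene HTB11 (10.3 and 2.13). The H2A genes HTA8 (12.8 and 3.75) and HTA13 (9.85 and 5.70) were not on the list and also had a peak beside them.

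A peak on each side of the same gene was found at 16 genes. This count was not compared with the number of genes that border such a gap on both sides. CRT1a had 19.4 and 5.38 on its left side and 8.76 and 3.49 on its right, and AIRP2 had 12.1 and 5.25 and then 10.4 and 4.05. CUC1, a NAC factor gene of organ boundaries in the embryo, had 7.74 and 2.78 and then 8.68 and 2.84. The 533 peaks bordered 1046 distinct genes in all.

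Neighbours with related names were about as common as elsewhere. Among gaps with a peak in which both neighbours have a symbol, 16 of 126 (12.7%, 7.97 to 19.6) had symbols that begin with the same letters, against 431 of 2731 (15.8%, 14.5 to 17.2) among all gaps that can hold a peak. The pairs ABCI18 with ABCI19 and XERO2 with XERO1 had the highest replicate 1 folds among them. GASA3 and GASA2, of a gibberellin-regulated family of small proteins, had 9.33 and 5.91, and MAF3 and MAF4, relatives of the flowering repressor FLC, had 8.68 and 2.79.

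By chromosome, the density per 100 kb was 7.31 (6.13 to 8.65) on chromosome 1, 5.68 (4.36 to 7.28) on chromosome 2, 8.12 (6.74 to 9.70) on chromosome 3, 7.68 (6.12 to 9.52) on chromosome 4 and 7.62 (6.37 to 9.05) on chromosome 5. The interval of chromosome 2 overlapped those of the others. At the border of the distance rule, 34 peaks had the farther gene 951 to 1000 bp away, with median folds of 7.04 and 3.05, and 31 peaks up to 50 bp beyond the limit had 8.00 and 3.25. At the border of the overlap rule, 5 peaks with 50 to 60% overlap had a median replicate 1 fold of 3.46, and 2 with 40 to 50% had 2.83.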

How the data were processed

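Per the file headers, each ChIP library was called separately against the input of the same number with MACS2 2.1.0.20150420, at a q threshold of 0.05 and 1 tag per position and strand, with fragments extended to 187 bp (replicate 1) or 149 bp (replicate 2). The submitters' processing notes name BWA 0.7.12 and TAIR10. The deposited pileup is a signal (extended fragments over the summit), the deposited fold is a ratio of pileup to local input background with 1 added to both, and the deposited −log10 p-value and −log10 q-value are the authors' significance.

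Lines with equal start and end were joined, and the summit of highest pileup was kept. Overlaps were computed in Python 3.11.15 (numpy 2.4.6, pandas 2.3.3, scipy 1.17.1), and checked with bedtools 2.31.1, which also found 3125 shared replicate 1 peaks and 3182 replicate 2 peaks. Where a peak had several partners, the one with the largest overlap was used. Genes were the 27444 nuclear protein-coding genes of a RefSeq table of assembly TAIR10.1, all 158 listed genes matched, and overlapping genes were merged before gaps were measured. Densities divide summits by the bases from which the rule could be met. Placement and overlap were tested on simulated data. Medians carry order-statistic intervals in the comparison of settings, pileups exact Poisson and shares Wilson intervals, all for counting error only.

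Members and lists were chosen with earlier results of these data known. Named were the 10 peaks with the highest smaller fold, the 3 in the shortest and longest gaps, nearest the middle of or nearest a gene in gaps of at least 1000 bp, and with the highest and lowest ratio, up to 3 per list, gaps with 2 listed genes and gaps with 2 peaks. CRC, CLO2, ERD10, LEA7, HTB11, CUC1, AIRP2, GASA3 and MAF3 with their neighbours, and the genes given as outside a list, were chosen after their values were seen. Planned orientation and promoter motif results needed strand and sequence and were not analysed here.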

Additional observations from a re-analysis of the deposited data

How the results depend on the processing

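Of 114 values under the 10 alternative settings, 68 were within 1.5 times (counts) or inside the main 95% interval (medians, shares and the density ratio), and 46 moved. At the 10 strongest sites a setting changes whether a site is counted, not its fold. All 10 were counted under −log10 q of at least 10, 7 with 50% overlap of both peaks (without the sites at HTB6, SYP43 and TOZ), 5 with a 500 bp window and 9 when placed by the replicate 2 summit. With 50% overlap of both peaks there were 261 peaks (15.5% of the shared ones, 1.51% of gaps, 19 listed genes), with a median gap of 744 bp, folds of 9.33 and 3.86, a fold ratio of 0.418, 63.2% of summits within 200 bp of a gene and a density ratio of 1.098. With −log10 q of at least 10 there were 136 (20.3%, 0.787% of gaps, 14 listed genes), with folds of 13.2 and 5.24, summits 23 bp apart, 66.9% within 200 bp and a density ratio of 1.68. A 500 bp window gave 264 (8.45%, 2.07% of gaps, 15 listed genes), a median gap of 314.5 bp, a relative position of 0.298 and 89.8% within 200 bp, and a 2000 bp window gave 971 (31.1%, 4.60%, 46 listed genes), 1164 bp and 54.4%; both change the rule itself. Genes of every type gave 19.6% of shared peaks and 2.44% of gaps. The strongest replicate 1 peaks alone gave 18.4% and 2.52%, folds of 9.71 and 3.69, a ratio of 0.380 and a density ratio of 1.62. With 1 replicate left out, the count was 590 to 1956 peaks, the share 14.1 to 17.6% of that list, 3.35 to 11.1% of gaps and 32 to 60 listed genes, and the replicate 1 median fold was 4.33. Apart from the wider or narrower window, which sets gap and distance by construction, the cause of these shifts was not tested. No paired analysis was possible because the result comes from peak lists already called over the input of the same number, with no test between samples. The median pileup in replicate 2 was 27 fragments, which sets the width of the counting intervals there.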

Other observations

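At 16 of the 533 peaks the summit between the protein-coding neighbours lay inside a gene of another type: 11 in long non-coding RNA genes, 3 in other non-coding RNA genes, 1 in a miscellaneous RNA gene and 1 in a tRNA gene. The strongest by the replicate 1 fold was in a long non-coding RNA gene between PEX10, a gene of peroxisome assembly, and AT2G26360, with folds of 20.5 and 4.51. The next, also in a long non-coding RNA gene, was between AT4G38930 and AT4G38940 (17.01 and 4.88). These sites were chosen after their values were seen, and the counts were not compared with a background.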
